A study of Homo sapiens with 6 samples.

Results

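The lectin chaperones and calcium binders of the secretory pathway lumen were examined as a set of 10 genes, CALR, CANX, UGGT1, UGGT2, CALU, RCN1, RCN2, SDF4, NUCB1 and NUCB2, taken by symbol from the 16625 genes of the deposited table. All 10 were listed, each once. The rule matched symbols and used no measured value, but the 10 were chosen with earlier results of these data known. The assay was RNA sequencing of polyA transcripts from neurons at day 10 to 14, made from human induced pluripotent stem cells derived from line UCSFi001-A by doxycycline-driven NGN2, a transcription factor that turns stem cells into neurons. The first group had 3 libraries labelled PEDS1 knockout, which lack by label the desaturase that gives plasmalogens their vinyl ether bond. The other group had 3 libraries of a control line, also derived from UCSFi001-A. Both groups carry the inducible NGN2 gene at the AAVS1 locus, matured in medium with doxycycline, BDNF, NT-3 and laminin, and share 1 batch label. The labels name 1 knockout line and 1 control line and give neither how the control line was made, the edited stretch of PEDS1 nor the origin of the replicates. The p-values below thus cover no more than the variation among these 6 libraries, and that variation may be technical.

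Glycoproteins that enter the endoplasmic reticulum (ER) carry a glucose-tagged sugar tree. Calnexin, a membrane protein, and calreticulin, its soluble relative, hold such proteins by that tag while they fold, glucosidases remove the tag, and the UGGT enzymes put it back on proteins that are still misfolded. Calreticulin is also a main calcium buffer of the ER lumen, and the EF-hand proteins of the CREC family (CALU, RCN1, RCN2, SDF4) and the nucleobindins bind calcium in the ER and Golgi.

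Recovered read totals ran from 17996634 to 28773664 in the libraries labelled PEDS1 knockout and from 25275584 to 44573013 in controls. The highest total is that of control replicate 3 and rests on taking its smallest value as 4 reads, since all its values are whole multiples of that value divided by 4. PEDS1 itself had 836, 765 and 1349 normalized counts in replicates 1, 2 and 3 of the libraries labelled PEDS1 knockout, against 1360, 1347 and 1399 in control replicates 1, 2 and 3, so replicate 3 of that label lay within the control range (log2 fold change -0.52 ± 0.17 SE; limma adjusted p = 0.0725). All 12 listed neuron markers were measured, with sums of 385982 to 398877 normalized counts in the libraries labelled knockout and 338921 to 351769 in controls. Of these 12, 2 rose, ELAVL4 and NEFL, and 2 fell, TUBB3 and RBFOX3. TUBB3 was at a low level, with 136 to 202 normalized counts under the knockout label and 220 to 293 in controls. MAP2 had 39194 or more in each library. The call of NEFL (limma adjusted p = 0.0496) was lost with TMM scaling (limma adjusted p = 0.0528) and quantile scaling (limma adjusted p = 0.412), and removal of GC and length trends ended those of TUBB3 (limma adjusted p = 0.0577) and RBFOX3 (limma adjusted p = 0.0585). Without control replicate 1, or without control replicate 2, none of these 3 genes was called. Without the library labelled knockout replicate 3, DCX, MAP2 and STMN2 were also called higher (limma adjusted p = 0.00771, 0.0296 and 0.00899). Of the 7 pluripotency markers, POU5F1, NANOG, L1TD1, TDGF1 and ZFP42 were not listed. LIN28A rose, with 624 to 812 normalized counts in the libraries labelled knockout and 318 to 339 in controls. DPPA4, the only other one measured, did not pass the test (limma adjusted p = 0.725). It had 55.8, 35.5 and 44.2 normalized counts in the libraries labelled knockout and 40.3, 33.6 and 49.4 in controls. Progenitor or cycling markers summed to 27642 to 31121 normalized counts under the knockout label and 25629 to 27410 in controls, nearly all from NES, and TOP2A and PAX6 rose, both at low levels. Astrocyte markers, with GFAP not listed, summed to 69.2 to 80.4 normalized counts under the knockout label and 63.2 to 76.5 in controls. Fibroblast-like markers, with COL1A1 not listed, summed to 36.6 to 79.4 under the knockout label and 39.2 to 49.5 in controls, with COL1A2 alone called higher. COL1A2 was not called without control replicate 1 (limma adjusted p = 0.0653) or control replicate 2 (limma adjusted p = 0.0574). PAX6 was not called without control replicate 2 (limma adjusted p = 0.0517). The part of these markers in the results on the 10 genes was not tested.

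Of the 10 genes, 5 fell in the libraries labelled PEDS1 knockout, 0 rose and 5 did not pass the test (limma on log2(normalized count + 1), adjusted p under 0.05 over all genes). CALR fell most, followed by CANX, NUCB2, SDF4 and NUCB1. Over all genes tested, 7.69% fell and 5.95% rose by the same test. The median log2 fold change was -0.36 over the 10 genes and -0.0064 over all genes. The count of members called higher was also 0 at an unadjusted p under 0.05 by limma, 0 with edgeR and 0 with DESeq2. Over all genes 921 were higher with edgeR and 1274 with DESeq2, and the share at the unadjusted p was not computed. At shares this small, 0 of 10 is not a result about these genes. In the authors' deposited table the same 5 had an adjusted p under 0.05, all lower, as had 9.54% of the 15013 genes with an adjusted p there, while 8.49% were higher. All values labelled knockout lay below all control values in the 5 genes that fell, as in 18.2% of all genes, and the groups overlapped in the other 5. Groups without overlap in either direction made up 37.1% of all genes. With the library labelled PEDS1 knockout replicate 3 left out, 6 of the 10 fell, UGGT1 being the sixth, and over all genes 1728 rose and 1849 fell. Without control replicate 1, or without control replicate 2, 4 of the 10 fell, and 358 or 335 of all genes. After removal of each library's trends on GC content and on transcript length, 7 fell, with UGGT1 and UGGT2 added. That fit covered only the 16046 genes with a known length and GC content, of which 1799 rose and 1433 fell. Without that step, 990 rose and 1279 fell over 16625 genes. In bulk RNA, less RNA per cell and fewer cells that express a gene cannot be told apart.

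**Figure D1:**
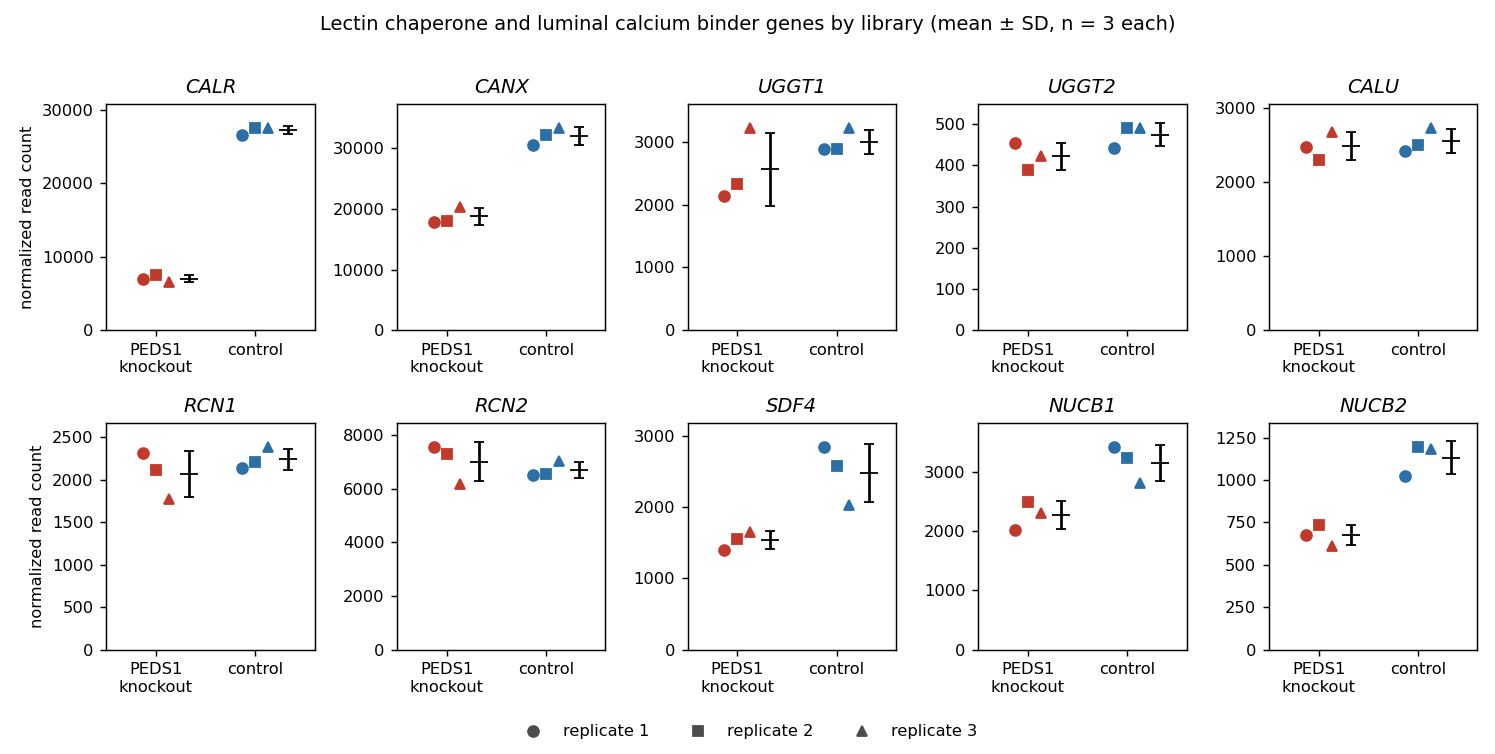
Normalized read counts of the 10 genes on linear axes from 0, with 1 marker per library, the libraries labelled PEDS1 knockout left and controls right, and the mean ± SD of 3 libraries beside each. CALR, CANX, SDF4, NUCB1 and NUCB2 show no overlap between groups, and the library labelled PEDS1 knockout replicate 3 sits apart from its group for UGGT1.

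CALR, the gene of calreticulin (ENSG00000179218, chromosome 19, 12938578 to 12944489, GRCh38), had 6972, 7538 and 6582 normalized counts in the libraries labelled PEDS1 knockout, against 26582, 27524 and 27482 in controls. The groups were far apart, and the spread within each was small beside the gap. The log2 fold change was -1.95 ± 0.070 (SE; limma adjusted p = 9.38e-07), a level 0.259 times that of controls and the 22nd lowest log2 fold change among 16625 genes. It stayed between -2.03 and -1.85 over the 17 alternatives run and passed the test in each.

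CANX, the gene of calnexin (ENSG00000127022, chromosome 5, 179678628 to 179730925), had 17814, 18088 and 20400 normalized counts in the libraries labelled knockout and 30516, 32231 and 33386 in controls. Again no library of one group reached the other. The mean was 18767 ± 1420 normalized counts in the libraries labelled knockout and 32044 ± 1444 in controls (SD, n = 3 each), and the log2 fold change was -0.77 ± 0.075 (SE; limma adjusted p = 0.000286), which passed under all 17 alternatives.

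The levels of CALR and CANX were also compared as a ratio within each library. Such a ratio does not depend on library scaling but can carry trends on GC content and length. With those trends removed, the log2 fold change was -1.85 for CALR and -0.84 for CANX. CALR over CANX was 0.391, 0.417 and 0.323 in the libraries labelled PEDS1 knockout, against 0.871, 0.854 and 0.823 in controls. On the log2 scale the ratio was 1.18 lower in the libraries labelled knockout (-1.42 ± 0.19 there and -0.24 ± 0.041 in controls, SD, n = 3 each; exact two-sided permutation p = 0.1, the smallest that 3 against 3 allow, and 0.2 adjusted over the 4 pairs compared). CALR took 15.7% ± 1.24 of the reads of the 10 genes in the libraries labelled knockout and 33.6% ± 0.336 in controls (SD, n = 3 each). CANX took 41.8% ± 2.32 in the libraries labelled knockout and 39.6% ± 0.798 in controls.

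The promoters of both lectin chaperone genes, and of 1 nucleobindin gene, hold a motif of the ER stress response. The ER stress response element (ERSE) is a CCAAT site, which the factor NF-Y binds, followed after 9 free bases by CCACG, which the stress factor ATF6 binds next to it. In ERSE-II the CCAAT site lies on the other strand, as ATTGG, with 1 free base before CCACG. The stretches below are 80 bases each, 5′ to 3′ on the gene's strand (RefSeq, GRCh38.p14), and are shown because they carry these letters in CALR (chr19:12938359-12938438, plus strand), CANX (chr5:179698717-179698796, plus strand) and NUCB1 (chr19:48900202-48900281, plus strand), with HSPA5 (chr9:125241374-125241453, minus strand) and HSP90B1 (chr12:103930280-103930359, plus strand), the ER Hsp70 and Hsp90 genes, for comparison. Capitals mark the fixed letters of the motif, ERSE in all but NUCB1, which has ERSE-II. In CALR, NUCB1 and the HSP90B1 stretch the motif reads on the other strand.
CALR: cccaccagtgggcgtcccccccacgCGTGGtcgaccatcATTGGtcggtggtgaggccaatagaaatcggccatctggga
CANX: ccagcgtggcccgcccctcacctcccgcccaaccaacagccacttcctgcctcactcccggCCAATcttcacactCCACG
NUCB1: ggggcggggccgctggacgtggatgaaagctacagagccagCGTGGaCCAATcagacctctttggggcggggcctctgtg
HSPA5: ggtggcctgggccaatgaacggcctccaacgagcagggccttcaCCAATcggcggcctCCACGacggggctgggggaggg
HSP90B1: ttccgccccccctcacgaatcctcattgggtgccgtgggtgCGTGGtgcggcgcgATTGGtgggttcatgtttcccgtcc

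Promoter windows of 250 bases before to 50 after a gene's start were found for all 10 genes, and motifs were searched on both strands. ERSE was present in 0.0916% of the 27305 genes with a window and ERSE-II in 0.0696%. Counted in bases from the start, the CALR match begins at -225, and 3 of the 4 CANX windows hold the same match, at -189, -151 or -9 depending on the start taken. At -9 it runs past the start, and the window of the fourth start, which lies farthest upstream, holds no match. In NUCB1 the match begins at -69. SDF4 and NUCB2, which also fell, hold neither motif in these windows, nor do UGGT1, UGGT2, CALU, RCN1 and RCN2. The CCACG site alone, which lies within both motifs, was present in 8 of the 10 genes and in 42.1% of all genes. No window of the 10 genes held the unfolded protein response element TGACGTGG, present in 0.927% of genes, or the core of the amino acid response element TGATGNAAN, present in 4.45%. A match is a description of letters and not a bound site.

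Of the 17 measured genes with an ERSE in their window, 12 fell and 0 rose. Among all genes 7.69% fell and 5.95% rose. The median log2 fold change of the ERSE genes was -0.77. Leaving out CALR and CANX, 10 of 15 fell, with a median of -0.76. At an unadjusted p under 0.05, 1 ERSE gene was higher by limma, and none passed as higher with edgeR or DESeq2. HSP90B1 (-2.08), HSPA5 (-2.02) and CRELD2 (-1.92), a cysteine-rich ER protein gene, bracketed CALR in that order of log2 fold changes, and the 5 that did not pass the test, GLRA2, SERP1, SYNPO, EIF2A and ZNF17, lay between -0.23 and 0.29. Of 14 measured genes with an ERSE-II, 6 fell and 0 rose, with 0 higher at an unadjusted p under 0.05 by limma and 0 by edgeR and DESeq2, and a median of -0.25. Leaving out NUCB1, 5 of 13 fell, with a median of -0.16. SDF2L1, the gene of an ER chaperone cofactor, was lowest at -3.19, and NUCB1 was the sixth lowest. The other motifs searched showed no such lean. Of 145 measured genes with the unfolded protein response element, 11 fell and 10 rose. Of 331 with the amino acid response element core, 26 fell and 39 rose. Of 6632 with the CCACG site, 580 fell and 417 rose. The ERSE genes called lower numbered 11 to 12 when each library was left out in turn and 15 with GC and length trends removed. The same counts for ERSE-II were 4 to 7 and 8, and 1 ERSE-II gene rose with those trends removed. Over all genes, 335 to 1849 were lower when each library was left out in turn. With those trends removed, 1433 were lower and 1799 higher. The members and these motifs were chosen with earlier results of these data known, so the counts are a description.

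**Figure D2:**
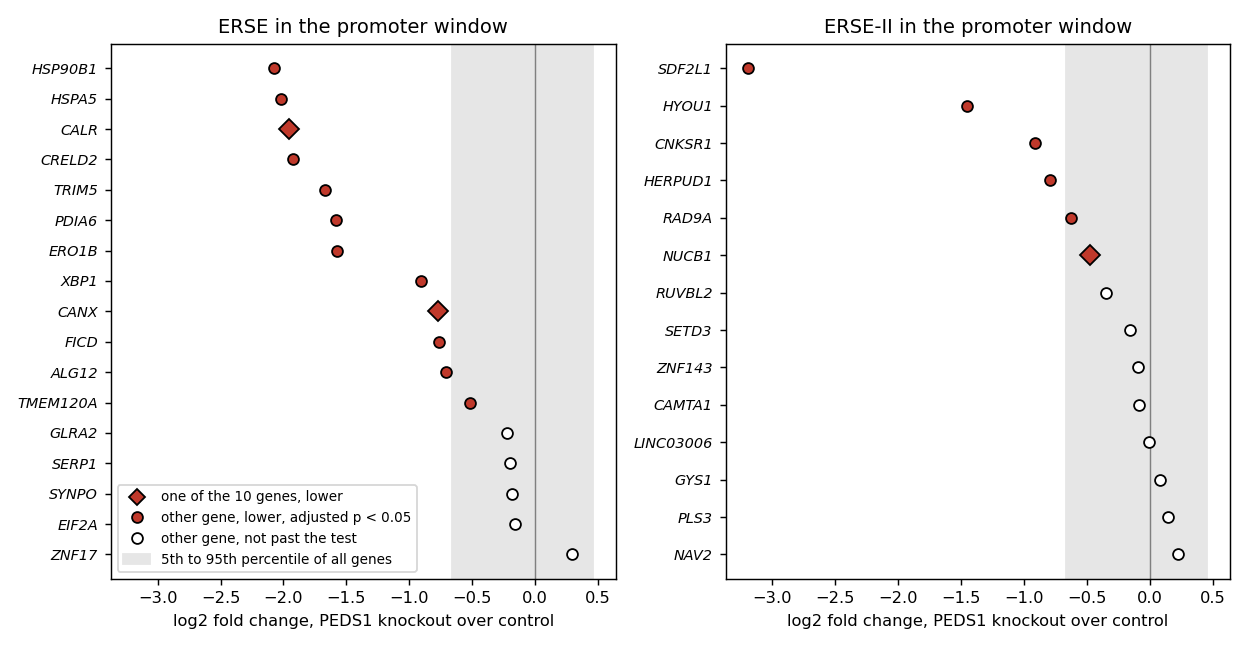
Log2 fold change (x axis, PEDS1 knockout over control) of each measured gene whose promoter window holds an ERSE (left) or an ERSE-II (right), with filled markers for genes called lower, diamonds for CALR, CANX and NUCB1, and grey for the 5th to 95th percentile of all genes (-0.66 to 0.46). In the ERSE panel 12 of 17 genes are called lower and in the ERSE-II panel 6 of 14.

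The glucosyltransferase genes of the cycle did not pass the test. UGGT1, the folding sensor (ENSG00000136731, chromosome 2, 128091200 to 128195677), had 2141, 2326 and 3218 normalized counts in replicates 1, 2 and 3 of the libraries labelled PEDS1 knockout, against 2894, 2892 and 3222 in controls. Replicates 1 and 2 of the knockout label were below every control, and replicate 3 was within the control range. A link to the PEDS1 count of each library was not tested. Over all 6 libraries the log2 fold change was -0.25, with a 95% interval of -0.55 to 0.047 (limma adjusted p = 0.225). It was -0.43 when the library labelled PEDS1 knockout replicate 3 was left out (limma adjusted p = 0.00379), and -0.41 after GC and length trends were removed (limma adjusted p = 0.00174). Without the library labelled knockout replicate 1 it was -0.13 (limma adjusted p = 0.524).

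UGGT2, the paralog of UGGT1 (ENSG00000102595, chromosome 13, 95801580 to 96053482, minus strand), had 454, 388 and 423 normalized counts in the libraries labelled knockout and 443, 491 and 490 in controls. The groups overlapped through control replicate 1. Its log2 fold change was -0.17, with a 95% interval of -0.38 to 0.038 (limma adjusted p = 0.238), and it passed as lower in 1 of the 17 alternatives, the removal of GC and length trends (-0.27; limma adjusted p = 0.0279). UGGT2 had the fewest reads of the members, 251 in 1 library. UGGT1 over UGGT2 was 4.71, 5.996 and 7.61 in the libraries labelled knockout and 6.53, 5.89 and 6.57 in controls, a log2 difference of -0.078 (exact two-sided permutation p = 0.8).

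**Figure D3:**
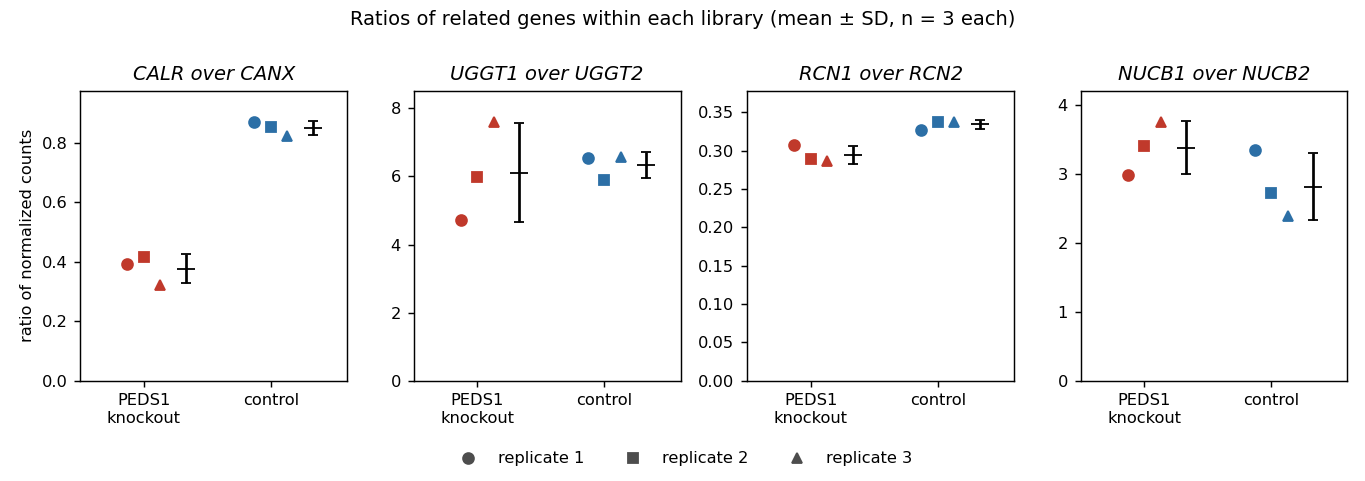
Ratios of normalized counts of 4 pairs of related genes within each library (y axis from 0), with the libraries labelled PEDS1 knockout left, controls right, and mean ± SD of 3 libraries. CALR over CANX averages 0.377 in the libraries labelled PEDS1 knockout and 0.849 in controls, and UGGT1 over UGGT2 and NUCB1 over NUCB2 overlap between groups.

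In the CREC family, SDF4 fell and the other 3 genes did not pass the test. SDF4, the gene of Cab45, a calcium binder of the Golgi lumen that takes part in sorting secreted proteins (ENSG00000078808, chromosome 1, 1216908 to 1232031, minus strand), had 1406, 1560 and 1657 normalized counts in the libraries labelled knockout, against 2838, 2576 and 2035 in controls. The controls were spread widely, with replicate 3 nearest to the libraries labelled knockout, yet the groups did not overlap. The log2 fold change was -0.68 ± 0.12 (SE; limma adjusted p = 0.00681). After removal of GC and length trends it was -0.40 (limma adjusted p = 0.000719). The longest SDF4 transcript holds 62.7% G and C, the highest share of the 10 genes, followed by that of NUCB1 at 60.3%.

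CALU, RCN1 and RCN2, the genes of calumenin and 2 reticulocalbins, are the close relatives of SDF4 in the ER. CALU (ENSG00000128595, chromosome 7, 128739292 to 128771807) had 2463, 2295 and 2671 normalized counts in the libraries labelled knockout and 2412, 2500 and 2725 in controls, with ranges that lay nearly on top of each other. RCN1 (ENSG00000049449, chromosome 11, 32090904 to 32105755) had 2318, 2111 and 1774 in the libraries labelled knockout, against 2134, 2208 and 2381 in controls. RCN2 (ENSG00000117906, chromosome 15, 76931619 to 76954392) had 7544, 7300 and 6189 in the libraries labelled knockout, against 6517, 6543 and 7050.4 in controls. The library labelled PEDS1 knockout replicate 3 was the lowest of all 6 for both genes. The other libraries of that label lay within or below the control range for RCN1 and above it for RCN2.

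The log2 fold change was -0.041 for CALU (95% interval -0.22 to 0.14; limma adjusted p = 0.767), -0.12 for RCN1 (-0.35 to 0.10; limma adjusted p = 0.426) and 0.060 for RCN2 (-0.13 to 0.25; limma adjusted p = 0.658), whose sign turned with quantile scaling (-0.011) and with GC and length trends removed (-0.071). RCN1 was at -0.017 without the library labelled knockout replicate 3 and at -0.21 without replicate 1 of that label. Each of these intervals leaves out a fall as large as that of SDF4, CANX or CALR, but the difference between SDF4 and its relatives was not itself tested. RCN1 over RCN2 was 0.307, 0.289 and 0.287 in the libraries labelled knockout, against 0.327, 0.337 and 0.338 in controls, so every knockout-labelled ratio was below every control ratio. The log2 difference was -0.18 (exact two-sided permutation p = 0.1, and 0.2 adjusted over 4 pairs). With GC and length trends removed, RCN1 was at -0.15 (limma adjusted p = 0.143), nearer to the -0.071 of RCN2. The ratio was not recomputed without those trends. RCN1 has a processed pseudogene, RCN1P2, that was counted separately with 299 normalized counts on average under the knockout label and 309.8 in controls, and reads could be split between them.

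Both nucleobindin genes fell. NUCB2, which encodes the precursor of the peptide nesfatin-1 (ENSG00000070081, chromosome 11, 17208153 to 17349980), had 678, 734 and 614 normalized counts in the libraries labelled knockout, against 1021, 1192 and 1183 in controls. Its log2 fold change, -0.74 ± 0.097 (SE; limma adjusted p = 0.00136), was close to that of CANX and passed under all 17 alternatives. NUCB1, a calcium binder of the Golgi (ENSG00000104805, chromosome 19, 48900050 to 48923372), had 2021, 2496 and 2303 in the libraries labelled knockout, against 3412, 3239 and 2818 in controls. Here too the groups did not overlap, and control replicate 3 was the lowest control, as for SDF4.

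The log2 fold change of NUCB1 was -0.47 ± 0.099 (SE; limma adjusted p = 0.0142), the smallest of the 5 falls. It missed the threshold without control replicate 1 (-0.42; limma adjusted p = 0.0832) or control replicate 2 (-0.45; limma adjusted p = 0.0777), and was -0.24 after GC and length trends were removed (limma adjusted p = 0.0191). NUCB1 over NUCB2 was 2.98, 3.40 and 3.75 in the libraries labelled knockout and 3.34, 2.72 and 2.38 in controls, which overlapped (log2 difference 0.27; exact two-sided permutation p = 0.2, and 0.267 adjusted over 4 pairs). Leaving out control replicate 3 gave a difference of 0.16, and leaving out control replicate 1 gave 0.40. With GC and length trends removed, NUCB2 was at -0.77 (limma adjusted p = 0.000126), farther from the -0.24 of NUCB1. The ratio was not recomputed without those trends.

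**Figure D4:**
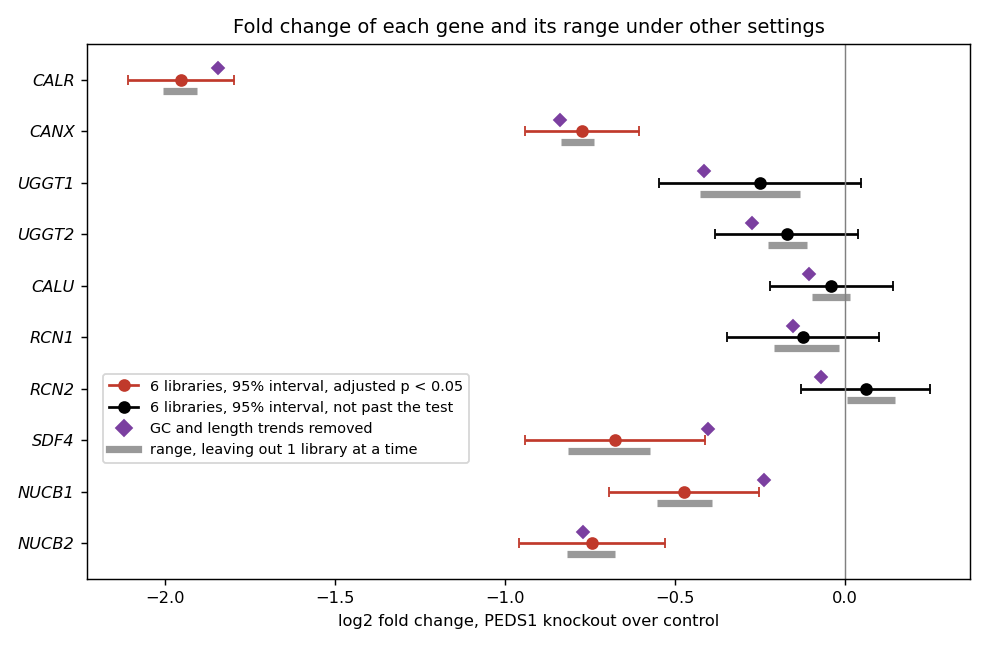
Log2 fold change (x axis, PEDS1 knockout over control) of each gene with its 95% limma interval, red where the adjusted p is under 0.05, with the value after removal of GC and length trends (diamonds) and the range when each library is left out in turn (grey bars). CALR lies far left of the others at -1.95, and the diamonds of SDF4 and NUCB1 lie right of their points while those of UGGT1 and UGGT2 lie left.

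Together the 10 genes took 0.158%, 0.161% and 0.160% of all reads in the libraries labelled PEDS1 knockout, against 0.286%, 0.298% and 0.301% in controls. The groups were far apart and the libraries labelled knockout nearly equal, at 0.160% ± 0.0015 for that label against 0.295% ± 0.0077 in controls (SD, n = 3 each; exact two-sided permutation p = 0.1). Without CALR the share was 0.135% ± 0.0022 in the libraries labelled knockout, against 0.196% ± 0.0058 in controls.

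Set per length, CANX and CALR stood above the rest in both groups. On the scale of normalized counts per kb of the longest annotated transcript, CANX had 4405 ± 333 and CALR 3695 ± 252 in the libraries labelled knockout, whereas controls had 7522 ± 339 and 14291 ± 280 (SD, n = 3 each). CALR therefore stood first in controls and below CANX in the libraries labelled knockout, with no overlap of the values of both genes in either group. The control order depends on the length used: with the median transcript length CANX stood first in both groups. CALR ranked 274th among 16046 genes in the libraries labelled knockout and 40th in controls on this scale, and CANX ranked 203rd in the libraries labelled knockout and 101st in controls.

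Below the lectin chaperones, the order of levels per kb in the libraries labelled knockout was RCN2 (1105), NUCB1 (852), RCN1 (779), CALU (586), SDF4 (438), UGGT1 (241), NUCB2 (207) and UGGT2 (87.3). In controls it was NUCB1 (1183), RCN2 (1056), RCN1 (845), SDF4 (706), CALU (603), NUCB2 (347), UGGT1 (282) and UGGT2 (98.3). Neighbours whose library values overlapped were NUCB1 and RCN1, and UGGT1 and NUCB2, in the libraries labelled knockout. In controls they were NUCB1 and RCN2, RCN1 and SDF4, and SDF4 and CALU.

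Genes that work beside the 10 in the same cycle were looked at by lists. Of 10 measured partners of the calnexin cycle, 5 fell and 0 rose, beside 7.69% and 5.95% of all genes (limma; 1 was higher at an unadjusted p under 0.05, and 0 with edgeR or DESeq2), with a median log2 fold change of -0.30. PDIA3, the oxidoreductase ERp57 that calnexin and calreticulin recruit, had 6053, 6227 and 5057 normalized counts in the libraries labelled knockout, against 12755, 13261 and 13507 in controls (log2 fold change -1.19 ± 0.086 SE; limma adjusted p = 4.34e-05). PPIB, the prolyl isomerase cyclophilin B, fell by 1.15 on the log2 scale, MLEC, the lectin malectin, by 0.49, PRKCSH, the beta subunit of glucosidase II, by 0.49, and ERP29 by 0.35. GANAB, the catalytic subunit of glucosidase II, had 9855, 9930 and 10010.3 normalized counts in the libraries labelled knockout and 9877, 9994 and 9847 in controls, a log2 fold change of 0.0038 (limma adjusted p = 0.9751). MOGS (-0.25), SELENOF (-0.014), CLGN (0.066) and TMX1 (0.24) did not pass, and CALR3 was not listed. Without control replicate 1, or without control replicate 2, 3 of these genes were called lower, where 358 and 335 of all genes were.

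Of 11 genes of the mannosidases, lectins and their partners that sort glycoproteins after the cycle, 4 fell and 0 rose, beside 7.69% and 5.95% of all genes by limma. At an unadjusted p under 0.05 by limma 1 was higher, and 0 with edgeR or DESeq2. The median log2 fold change was -0.22. SEL1L, the adaptor of an ER degradation ligase, fell by 0.75 on the log2 scale, OS9, a degradation lectin, by 0.48, the cargo lectin gene LMAN2 by 0.44, and MCFD2, an EF-hand partner of LMAN1, by 0.31. The others did not pass. Among them EDEM1 (-0.42) and EDEM2 (-0.22) had all values under the knockout label below the controls, as had 18.2% of all genes. EDEM3 (0.26) had all such values above the controls, as had 19.0% of all genes. All are genes of the EDEM family that marks glycoproteins for degradation. ERLEC1 (-0.00052) and LMAN1 (0.12) overlapped between groups. EDEM1 was called lower without the library labelled knockout replicate 3 (-0.59; limma adjusted p = 0.00097) and after removal of GC and length trends (-0.52; limma adjusted p = 0.0045). Without control replicate 1, or without control replicate 2, 2 were called lower, where 358 and 335 of all genes were.

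Of 12 measured other calcium binders of the ER lumen, 4 fell and 0 rose, beside 7.69% and 5.95% of all genes (limma; 1 higher at an unadjusted p under 0.05, 0 with edgeR and 1 with DESeq2), with a median of -0.15. They were HSP90B1, HSPA5, PDIA4 (log2 fold change -1.72) and P4HB (-0.66), all chaperones or disulfide isomerases. The EF-hand isomerase genes FKBP7, FKBP9, FKBP10 and FKBP14 had log2 fold changes of -0.22 to 0.31 and did not pass. With GC and length trends removed, FKBP7 (-0.26) was called lower, and FKBP9 (0.36) and FKBP10 (0.37) were called higher. Nor did STIM1 (-0.077) and STIM2 (0.051), the ER calcium sensors, pass. RCN3, another CREC family gene, had at most 9.27 normalized counts in a library labelled knockout and 24.0 in a control, and the calsequestrin genes CASQ1 and CASQ2 were not listed.

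**Figure D5:**
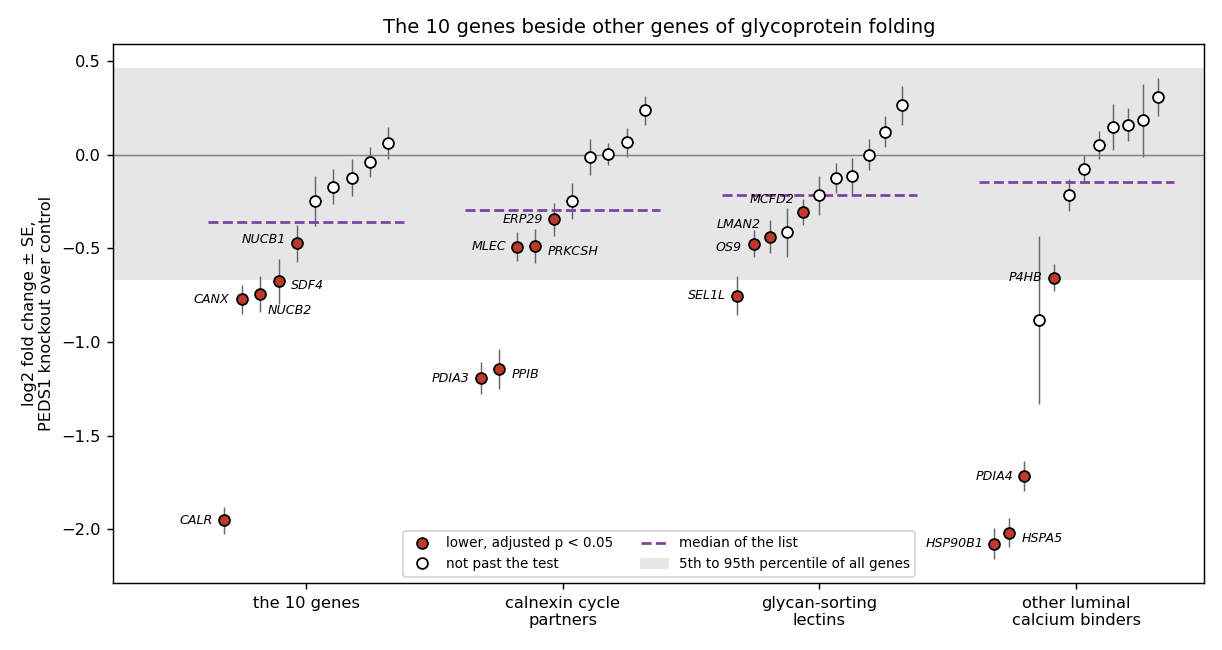
Log2 fold change ± SE (y axis, PEDS1 knockout over control) of the 10 genes and of 3 lists of other ER genes, 1 marker per gene in order of value, with red for genes called lower, dashed lines for list medians (-0.36, -0.30, -0.22 and -0.15 from left to right) and grey for the 5th to 95th percentile of all genes. CALR lies at the level of HSPA5 and HSP90B1, and no gene in these lists is called higher.

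The genes whose values were nearest to those of CALR across the 6 libraries, by root mean square distance of centred log2 values among 11454 genes, were HSPA5 (0.039), HSP90B1 (0.077), TNFRSF10B (0.078), CRELD2 (0.12) and TMEM50B (0.12). For CANX the nearest were SYT13 (0.046), SHISA9 (0.046), SLCO1A2 (0.056), SEL1L (0.067) and HOOK1 (0.070). These distances are taken over 2 groups of 3 libraries, share the gap between the groups, and are a description.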

How the data were processed

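Values were normalized read counts of 6 libraries, deposited by the authors as a signal per gene, that is reads divided by 1 size factor per library. STAR 2.7.10b, DESeq2 and build GRCh38 are named per the submitters' processing notes, while the counting tool and the gene annotation were not given in the sources used here. Log2 fold changes, a test score and p-values were also deposited by the authors, and of these the log2 fold changes and adjusted p-values were used as an alternative, with 1612 adjusted p-values empty. All values were whole multiples of 1 read per library (100% within a tolerance of 1e-06), with the smallest value of control replicate 3 taken as 4 reads, which gave back reads for edgeR 4.0.16 and DESeq2 1.42.0 as alternatives. No library pair agreed within sampling noise.

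The main test was limma 3.58.1 in R 4.3.3 on log2(normalized count + 1), without a filter on low values, with Benjamini-Hochberg adjustment over 16625 genes at 0.05; the fold changes are on that scale, which understates low genes. Ratios and shares had exact permutation tests. Scripts were tested on simulated data. Transcript lengths, GC content and gene positions came from GENCODE 29, which matched 16046 genes, and promoters from RefSeq. Counting intervals were not used, since the spread between libraries is given. Alternatives were TMM and quantile scaling, pseudocounts of 0.5 and 5, minimum mean counts of 10 and 100, removal of GC and length trends, leaving out each library, and a replicate block.

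The 10 genes, the lists and the motifs were chosen with earlier results of these data known. Named genes were the 10, PEDS1, list genes past the threshold with 2 abundant others per list, and the 5 nearest in pattern to CALR and to CANX. Genes named from the motif groups and the markers, and the other list genes, were chosen after their values were seen.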

Additional observations from a re-analysis of the deposited data

How the results depend on the processing

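CALR, CANX, NUCB2 and SDF4 were called lower under all 17 alternatives and NUCB1 under 15. These alternatives are not separate checks. The authors' deposited table and DESeq2 on recovered reads gave the same fold changes, and pseudocounts and minimum mean counts hardly moved these genes. Of the 6 fits that left out 1 library, NUCB1 was called lower in 4. Leaving out each library in turn gave log2 fold changes of -0.55 to -0.39 for NUCB1, -0.43 to -0.13 for UGGT1, -0.097 to 0.013 for CALU, -0.23 to -0.11 for UGGT2, -0.21 to -0.017 for RCN1, 0.0048 to 0.15 for RCN2 and -0.77 to -0.37 for PEDS1, and a UGGT1 over UGGT2 log2 difference of -0.25 to 0.095 and a NUCB1 over NUCB2 difference of 0.16 to 0.40. It gave 4 to 6 members called lower, 335 to 1849 genes lower and 247 to 1728 higher among all genes, 3 to 6 calnexin cycle partners lower and 2 to 5 sorting genes lower. The lowest counts over all genes came without control replicate 2 (335 and 247) and control replicate 1 (358 and 265), and 640 genes were higher without the library labelled PEDS1 knockout replicate 2. With GC and length trends removed, the log2 fold change was -0.41 for UGGT1, -0.27 for UGGT2, -0.071 for RCN2 and -0.61 for PEDS1, called lower there and also with the library labelled PEDS1 knockout replicate 3 left out (-0.77), 1799 genes were higher, 5 other luminal calcium binders were called lower and 2 higher, and 1 ERSE-II gene was called higher. Quantile scaling gave -0.011 for RCN2 and -0.52 for PEDS1, also called lower; the authors' deposited table and DESeq2 gave -0.48 for PEDS1, also called. Each of these 3 settings called 1 other luminal calcium binder higher. Without CALR the difference of the summed share was -0.0611 percentage points.

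With the median transcript length, positions in the libraries labelled PEDS1 knockout moved to 4 for RCN1, 5 for UGGT1, 6 for NUCB1, 7 for NUCB2, 8 for CALU and 9 for SDF4. In controls they moved to 1 for CANX, 2 for CALR, 3 for RCN2, 4 for NUCB1, 5 for UGGT1, 6 for RCN1, 7 for NUCB2, 8 for SDF4 and 9 for CALU.

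Deviations of same-numbered replicates from their group means had correlations of -0.30, 0.097 and -0.049 over 11705 genes. Differently numbered replicates reached 0.27 (knockout label 1 with control 3) and -0.22 (knockout label 2 with control 3). Deviations centred within groups of 3 are tied to each other, so these values cannot show whether the numbers pair the samples. With a replicate block, 862 genes were lower and 698 higher, 5 members were lower, and no member's call changed. The causes of these shifts were not tested. Depth was not low for any of the 10 genes, with 251 reads or more in each library. The number of libraries limits the precision, and groups of 3 are too small for a test of outlying libraries.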
